A study of Mus musculus with 2 samples.

Results

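Mouse embryonic fibroblasts (MEFs) that carried many transcripts of 6 Hox genes were set against MEFs in which no transcript of these genes was found. The 6 genes were Hoxb7, Hoxb8, Hoxb9, Hoxc6, Hoxc8 and Hoxc9. Of the 5118 MEF cells kept (at least 10000 unique molecular identifiers, or UMIs, at least 500 genes and at most 20% of UMIs in mitochondrial genes), 2734 (53.4%) held 10 or more UMIs of the 6 genes summed and 256 (5.0%) held 0. The other 2128 cells (41.6%) lay between. Both sides came out of 1 library, so cells were not replicates, no difference was tested, and every interval below covers counting error only.

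The cells of both libraries were made from mouse embryonic fibroblasts of the genotype Tg:Pax7-nGFP/C57BL6;DBA2, with a nuclear GFP reporter for Pax7 on a mixed strain background. The MEF library held fibroblasts grown in MEF medium. The iMPC library held induced myogenic progenitor cells made from such fibroblasts with MyoD and the F/R/C treatment, and the series text speaks of 1 stable clone. How many embryos were pooled, their age and which body regions were dissected are not given in the sources used here.

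Hox genes encode homeodomain transcription factors that lie in 4 clusters and tell cells where along the body they are. The order of the genes in a cluster follows the order of their use: genes at the 3′ end, with low paralogue numbers, are used towards the head, and those at the 5′ end, with high numbers, towards the tail. In limb buds the 5′ genes of the Hoxa and Hoxd clusters are used a further time, towards the tip of the limb, and fibroblasts in culture are known to keep a Hox pattern of the place they came from. In GRCm38 (GENCODE M21) the clusters lie at chr6:52155590-52260880 (Hoxa, 11 genes), chr11:96194316-96368256 (Hoxb, 10 genes), chr15:102921103-103036852 (Hoxc, 9 genes) and chr2:74668310-74765142 (Hoxd, 9 genes).

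Measured against the working label of posterior-Hox-high and Hox-free cells, the data went against both names. The 6 genes belong to the middle paralogues 6 to 9, and most genes of the posterior paralogues 10 to 13 were higher on the other side. Of the 256 cells with none of the 6 genes, 233 (91.0%) held UMIs of other Hox genes, and 23 held none of the 39 Hox genes in the matrix. The sides are therefore called Hoxb/c-high and Hoxb/c-negative here, where negative means that no UMI of the 6 genes was counted.

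The upstream windows of 3 Hox genes are shown because these genes stand at the opposite ends of the contrast described next: Hoxb8 is one of the 6 selecting genes, and Hoxd13 and Hoxa13, at the 5′ ends of their clusters, were far higher in Hoxb/c-negative than in Hoxb/c-high cells. Each window is the 250 bases before the RefSeq start site in GRCm38.p6, printed 5′ to 3′ on the gene's strand. Capitals mark every match to TATAAA or CCAAT on either strand, so TTTATA and ATTGG also count, and overlapping matches run together.
Hoxb8, chr11:96281655-96281904, plus strand: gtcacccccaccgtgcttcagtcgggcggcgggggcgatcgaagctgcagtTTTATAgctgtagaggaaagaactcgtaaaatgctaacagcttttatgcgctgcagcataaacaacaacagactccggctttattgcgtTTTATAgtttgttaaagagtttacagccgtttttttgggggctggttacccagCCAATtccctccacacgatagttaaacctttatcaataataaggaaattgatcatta
Hoxd13, chr2:74667975-74668224, plus strand: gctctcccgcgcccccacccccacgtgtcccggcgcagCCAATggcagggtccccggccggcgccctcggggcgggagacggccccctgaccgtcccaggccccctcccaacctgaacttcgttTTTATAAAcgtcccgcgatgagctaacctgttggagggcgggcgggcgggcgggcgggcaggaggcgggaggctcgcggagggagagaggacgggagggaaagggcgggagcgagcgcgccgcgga
Hoxa13, chr6:52260881-52261130, minus strand: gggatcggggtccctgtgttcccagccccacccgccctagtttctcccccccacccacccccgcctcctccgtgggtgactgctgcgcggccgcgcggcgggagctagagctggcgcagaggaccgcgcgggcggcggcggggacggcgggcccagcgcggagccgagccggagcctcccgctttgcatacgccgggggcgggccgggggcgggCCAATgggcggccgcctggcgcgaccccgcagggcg

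The Hoxb8 window held 12 CpG dinucleotides at 44.4% GC, that of Hoxd13 31 at 74.4% and that of Hoxa13 35 at 80%. The median over 32851 RefSeq windows of the same length was 6 CpG. TATAAA occurred 2 times in the Hoxb8 window, 2 times in the Hoxd13 window and 0 times in the Hoxa13 window, against 12.4% of all windows with at least 1 match. CCAAT occurred 1 time in each of the 3 windows, against 33.8% of all windows. These matches describe letters only. Windows were found for 22 of 38 Hox genes.

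The 6 selecting genes together were at 658 CPM (UMIs scaled to the same total on each side, in parts per 1e+06) in Hoxb/c-high cells and 0 in Hoxb/c-negative cells, as the choice of cells required. The levels in Hoxb/c-high cells were 252 CPM for Hoxc8, 127 CPM for Hoxc6, 99.7 CPM for Hoxb9, 84.0 CPM for Hoxc9, 53.7 CPM for Hoxb8 and 41.6 CPM for Hoxb7. A median Hoxb/c-high cell held 15 UMIs of the 6 genes, and the highest held 48. Just outside the limits lay 285 cells with a sum of 9, beside 302 with a sum of 10, and 188 cells with a sum of 1, beside 256 with a sum of 0. Across the library the number of cells per sum fell from 256 at 0 to 158 at 2 and came to 349 at 8. After each cell was thinned to 10000 UMIs, 384 cells held a sum of 0 and 384 a sum of 1, and the dip was gone.

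**Figure D1:**
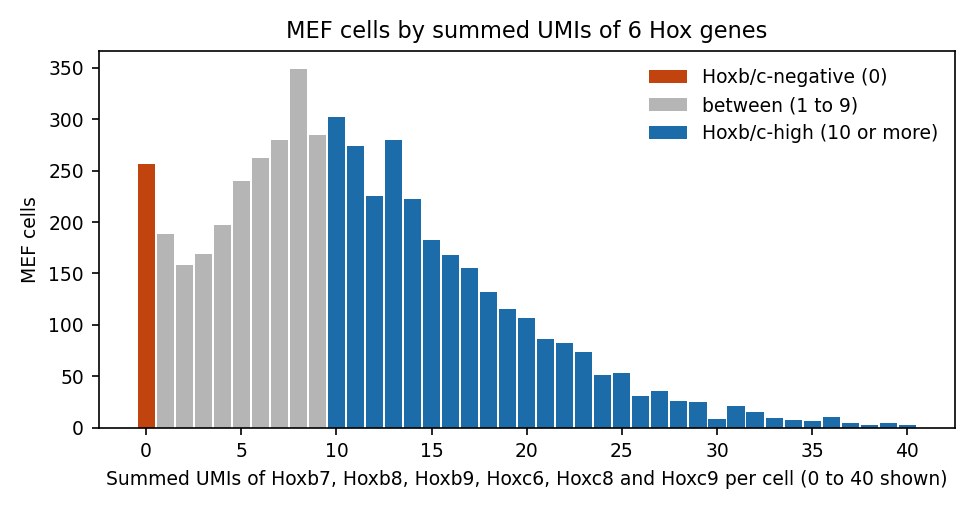
Number of kept MEF cells (vertical axis) by the summed UMIs of Hoxb7, Hoxb8, Hoxb9, Hoxc6, Hoxc8 and Hoxc9 per cell (horizontal axis, 0 to 40). The 256 cells at 0 form a bar of their own above the 158 cells at 2, and the 2734 cells at 10 or more make up the right side.

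Cells of the 2 sides differed in depth. Hoxb/c-high cells held a median of 24243 UMIs (10046 to 60333) and 4770 genes, and Hoxb/c-negative cells 18990 UMIs (10020 to 46010) and 4193.5 genes. At the mean level of the library a cell of 18990 UMIs would hold 9.59 UMIs of the 6 genes. Median mitochondrial shares were 6.04% and 5.89%. Of the Hoxb/c-high cells 7.35% were among the 290 highest doublet scores, and of the Hoxb/c-negative cells 0.781%. The part of depth and doublets in the results was not tested beyond the thinned, depth-matched and score-filtered values given with them.

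The remaining Hox genes did not move as 1 block (plot of log2 ratios by cluster and paralogue number). The 8 Hoxb and Hoxc genes outside the rule with 1 CPM or more on a side (Hoxb2 to Hoxb6, Hoxc4, Hoxc5 and Hoxc10) were all higher in Hoxb/c-high cells. The 5′ genes of Hoxa and Hoxd were far higher in Hoxb/c-negative cells. The 3′ genes Hoxa2 to Hoxa5 were also higher there, though Hoxa5 had a log2 ratio of -1.41. The Hoxb and Hoxc rows are neighbours of the selecting genes and are given as a description.

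**Figure D2:**
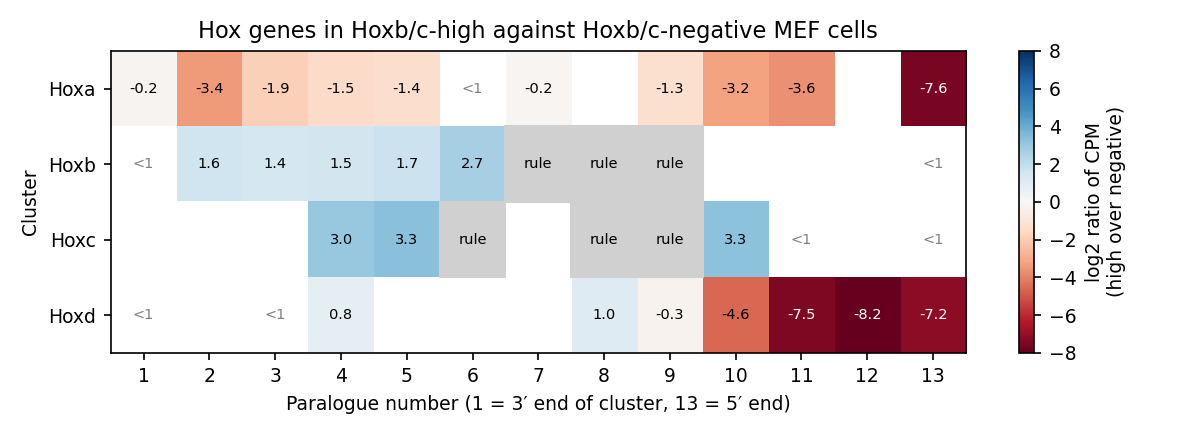
Log2 ratio of CPM, Hoxb/c-high over Hoxb/c-negative cells, for each Hox gene by cluster (rows) and paralogue number (columns). Grey squares are the 6 selecting genes, <1 marks genes under 1 CPM on both sides, empty squares are places without a gene or, for Hoxc12, without a UMI; blue squares fill the Hoxb and Hoxc rows and the darkest red squares sit at Hoxd11 to Hoxd13 and Hoxa13.

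Among posterior genes, Hoxd13, which patterns digits and the genital region, was at 35.6 CPM (182 UMIs) in Hoxb/c-negative cells and at 0.248 CPM (17 UMIs) in Hoxb/c-high cells, a log2 ratio of -7.16 (95% interval -7.97 to -6.44). Its neighbour Hoxd11 was at 36.3 CPM against 0.204 CPM (-7.47, -8.37 to -6.69). Hoxd12 had 45 UMIs against 2 (-8.23, -11.32 to -6.30), and Hoxa13, the other gene of the limb tip, 43 UMIs against 3 (-7.58, -9.92 to -5.94). These 4 genes were close to absent on the Hoxb/c-high side, although that side held more than 10 times the UMIs of the other (68466413 against 5119453).

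Hoxd10 (13.7 against 0.570 CPM, log2 ratio -4.59), Hoxa10 (29.5 against 3.17 CPM, -3.22) and Hoxa11 (10.2 against 0.818 CPM, -3.63) leaned the same way with smaller ratios. Hoxc10 was the exception among the posterior genes. It was at 23.0 CPM in Hoxb/c-high and 2.34 CPM in Hoxb/c-negative cells (3.29, 2.48 to 4.25). Hoxc13 had 60 UMIs against 0, Hoxc11 5 against 0, Hoxb13 2 against 0, and Hoxc12 none on either side. The posterior genes thus split by cluster, with the Hoxa and Hoxd members on one side and Hoxc10 on the other.

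Among the anterior paralogues 1 to 5, Hoxb2 was at 56.1 CPM in Hoxb/c-high and 18.4 CPM in Hoxb/c-negative cells (log2 ratio 1.61), Hoxb3 at 30.6 against 11.5 CPM (1.41), Hoxb4 at 40.3 against 14.3 CPM (1.5) and Hoxb5 at 21.5 against 6.45 CPM (1.74). Hoxc4 (7.89 against 0.977 CPM, 3.01) and Hoxc5 (9.74 against 0.977 CPM, 3.32) had 5 UMIs each on the negative side. Without the Hoxb/c-negative cells holding a 5′ Hoxa or Hoxd UMI, Hoxb2 (0.52), Hoxb3 (0.36), Hoxb4 (0.37) and Hoxb5 (0.61) were under 2-fold. In that setting the Hoxb/c-high side was left whole, with its 59 cells that held such a UMI. With sides from the Hoxb genes alone, so were Hoxc4 (0.18) and Hoxc5 (0.53). The gene model of Hoxc5 overlaps Hoxc6, Hoxc8, Hoxc9 and Hoxc10, so its level is uncertain. Hoxa2, which patterns the hindbrain and the neck, went the other way with 0.336 against 3.52 CPM (-3.39, -4.34 to -2.41), as did Hoxa5 with 3.68 against 9.77 CPM (-1.41). Hoxa5 shares its span with the model of Hoxa3, so reads may have been split between them. Hoxd4, whose model overlaps Hoxd3, was within 2-fold (0.75).

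The middle paralogues outside the selection were mixed. Hoxb6 was at 24.8 against 3.91 CPM (log2 ratio 2.67) and Hoxd8 at 26.2 against 12.7 CPM (1.04), which was under 2-fold in 10 of 16 alternatives. Hoxa7 was within 2-fold at 13.3 against 14.8 CPM (-0.16, -0.50 to 0.20), as was Hoxd9 (-0.25). Hoxa9 was lower in Hoxb/c-high cells at 4.73 against 11.5 CPM (-1.28). Without the Hoxb/c-negative cells holding a 5′ Hoxa or Hoxd UMI, a variant chosen after seeing the data, the Hoxa9 ratio became 1.47.

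Sides drawn from 1 of the 2 clusters alone gave a reading of the other cluster that the choice of cells did not fix. With cells chosen by Hoxb7 to Hoxb9 (1531 cells with at least 5 UMIs, 703 with 0), Hoxc8 was at 219.8 against 98.8 CPM (log2 ratio 1.15), Hoxc9 at 70.4 against 28.0 CPM (1.33) and Hoxc6 at 114 against 58.4 CPM (0.97). With cells chosen by Hoxc6, Hoxc8 and Hoxc9 (3465 against 450 cells), Hoxb9 was at 87.7 against 11.6 CPM (2.92), Hoxb7 at 37.2 against 12.5 CPM (1.57) and Hoxb8 at 47.7 against 21.0 CPM (1.18). The 2 clusters leaned together in both readings. Hoxd13 was lower in the high cells of both, with log2 ratios of -5.48 and -6.36.

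Over all non-Hox genes with at least 2 CPM in the kept MEF cells (10844 genes), 439 (4.05%) were at least 2-fold higher in Hoxb/c-high cells and 316 (2.91%) at least 2-fold higher in Hoxb/c-negative cells. The median log2 ratio was 0.05. Both directions together came to 755 genes (6.96%). The median shift of 0.05 is small beside the ratios that follow. When the sides were compared within bins of equal depth the counts were 497 and 379. With cells thinned to 10000 UMIs they were 371 and 263, but there the sides were redrawn from the thinned counts. That setting took 5 or more UMIs of the 6 genes against 0, and 384 cells held 0.

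Other marks of body position were read from 6 lists of 120 non-Hox genes: Hox cofactors, limb, cranial and pharyngeal arch mesenchyme, trunk, visceral and cardiac mesoderm, and axial signals. Of these 46 passed 2 CPM over all kept MEF cells, and 21 were at 0 UMIs on both sides. A gene confined to the small negative side can miss that limit: Lhx2, Msx1, Lmx1b, Pitx1, Tbx4, Tfap2b and Alx1, described further on, did, and are outside the counts. Of the 46, 6 were at least 2-fold higher in Hoxb/c-high cells, against a background of 4.05%, and 11 in Hoxb/c-negative cells, against 2.91%. The median log2 ratio of the 46 was -0.06, beside 0.05 for all tested genes. By list, 0 of 8 cofactors, 3 of 10 limb genes, 2 of 5 cranial genes, 2 of 5 trunk genes, 6 of 10 visceral and cardiac genes and 4 of 8 axial signal genes were 2-fold apart.

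**Figure D3:**
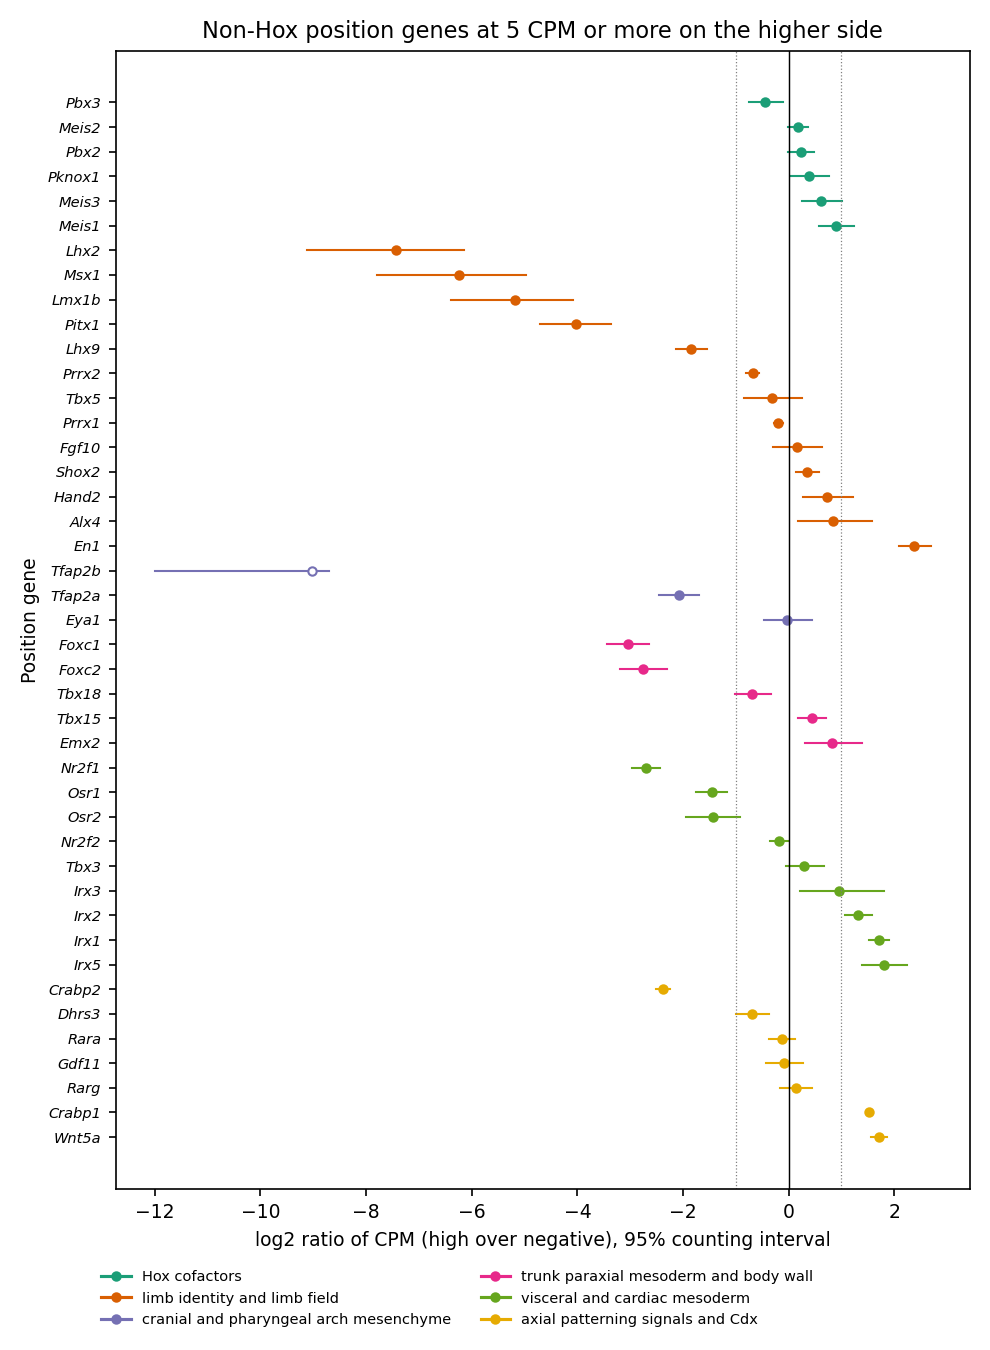
Log2 ratio of CPM (horizontal axis, Hoxb/c-high over Hoxb/c-negative) with its 95% counting interval for 43 non-Hox position genes at 5 CPM or more on the higher side, coloured by list. Dotted lines mark 2-fold and the open circle (Tfap2b) is a value set by a floor of 3 counts. This selection favours genes that differ, so no count is read from it; En1, Irx5, Wnt5a, Irx1, Crabp1 and Irx2 lie to the right, and limb and cranial genes reach furthest to the left.

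The position genes higher in Hoxb/c-high cells included En1, a homeobox gene of ventral ectoderm, brain and dermal precursors, at 92.5 CPM (6330 UMIs) against 17.8 CPM (91 UMIs), a log2 ratio of 2.38 (2.08 to 2.69). In cells thinned to 10000 UMIs it was found in 57.0% of Hoxb/c-high cells (95% interval 55.1 to 58.9) and 10.9% of Hoxb/c-negative cells (7.39 to 15.4). Unthinned shares were 82.4% and 23.0%. Most Hoxb/c-high cells therefore held En1, while a minority of Hoxb/c-negative cells did. With sides drawn from the Hoxb genes alone, the En1 ratio was 0.93, under 2-fold.

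The Iroquois homeobox genes, which subdivide tissues along several axes, leaned the same way. Irx1 was at 155 against 47.7 CPM (log2 ratio 1.70, 1.52 to 1.89), Irx2 at 68.1 against 27.3 CPM (1.32) and Irx5 at 34.0 against 9.77 CPM (1.80). Irx3 (5.67 against 2.93 CPM, 0.95) was just inside 2-fold, and Irx4 and Irx6 had 0 UMIs on both sides. The ratios of Irx1, Irx2 and Irx5 fell under 2-fold with sides from the Hoxb genes alone (0.83, 0.73 and 0.87) and from the Hoxc genes alone (0.97, 0.85 and 0.89). They did so too without the Hoxb/c-negative cells holding a 5′ Hoxa or Hoxd UMI (0.99, 0.86 and 0.85).

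Wnt5a, a secreted signal that drives outgrowth of the body axis and limbs, was at 232 CPM in Hoxb/c-high and 71.1 CPM in Hoxb/c-negative cells (log2 ratio 1.71, 1.56 to 1.86). Crabp1, a retinoic acid binding protein, was at 3479.7 against 1206 CPM (1.53). Its relative Crabp2 went the other way, at 24.5 against 127 CPM (-2.38). Without the Hoxb/c-negative cells holding a 5′ Hoxa or Hoxd UMI, the ratios were 0.85 for Crabp1 and -0.31 for Crabp2, both under 2-fold. With sides from the Hoxb genes alone, Wnt5a was at 0.95 and Crabp1 at 0.39. The retinoic acid receptor genes Rara (-0.13) and Rarg (0.13) were within 2-fold. Cdx1, Cdx2 and Cdx4, direct regulators of trunk Hox genes in the embryo, had 0 UMIs on both sides, which allows up to 0.0438 CPM in Hoxb/c-high and 0.586 CPM in Hoxb/c-negative cells.

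In the next 3 paragraphs the level in Hoxb/c-negative cells comes first, and log2 ratios stay Hoxb/c-high over Hoxb/c-negative. The limb gene Lhx2, a LIM homeobox gene of the growing limb tip, was at 12.7 CPM (65 UMIs) against 0.0730 CPM (5 UMIs), a log2 ratio of -7.44 (-9.11 to -6.15). Msx1, a homeobox gene of undifferentiated limb and facial mesenchyme, had 34 UMIs against 6 (-6.24) and Lmx1b, which marks the dorsal side of the limb, 27 against 10 (-5.17). Pitx1, a hindlimb determinant, was at 8.59 against 0.526 CPM (-4.03) and Lhx9 at 22.9 against 6.37 CPM (-1.84). Without the Hoxb/c-negative cells holding a 5′ Hoxa or Hoxd UMI, the last 2 ratios turned to 0.30 for Pitx1 and 0.90 for Lhx9. The Hoxb/c-high side was left whole there. The hindlimb gene Tbx4 had 17 UMIs against 1 (-7.83, -13.21 to -5.15). Tbx5, its forelimb counterpart, was within 2-fold at 6.25 against 5.0 CPM (-0.32, -0.85 to 0.25). Prrx1, a marker of limb and lateral mesenchyme in general, was within 2-fold too, at 258 against 225 CPM (-0.20).

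Of the cranial list, Tfap2b (chr1:19208914-19238576), a transcription factor of neural crest, face and limb, had 116 UMIs (22.7 CPM) in Hoxb/c-negative and 0 UMIs in Hoxb/c-high cells. With that side set to 3 counts the gene was 517-fold higher in Hoxb/c-negative cells. The 95% counting interval, which uses the 0, starts at 414-fold. In thinned cells 10.2% of Hoxb/c-negative cells held it, and 0 of 2734 Hoxb/c-high cells. The 95% interval of the latter share of cells with a UMI reaches 0.135%, and 3 of 2734 cells are 0.110%. Its relative Tfap2a was at 15 against 3.56 CPM (log2 ratio -2.08). Eya1, a transcriptional coactivator gene of ear and branchial arches, was within 2-fold (8.79 against 8.57 CPM, -0.04).

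Trunk and visceral genes of the negative side were Foxc1 (17.6 against 2.13 CPM, log2 ratio -3.04) and Foxc2 (13.1 against 1.94 CPM, -2.75), forkhead genes of paraxial mesoderm, and Nr2f1 (35.2 against 5.39 CPM, -2.71), a nuclear receptor. Osr1 (-1.46) and Osr2 (-1.44), zinc finger genes of intermediate mesoderm and jaw, were also higher there, though under 2-fold with sides from the Hoxb genes alone (-0.97 and -0.92). The body wall gene Tbx15 (24.8 against 33.6 CPM, 0.44), Emx2 (0.82) and Tbx18 (-0.69) were within 2-fold. Of the Hox cofactors, which bind DNA beside Hox proteins, Meis2 was at 50.4 against 57.0 CPM (0.18) and Pbx2 at 28.5 against 33.4 CPM (0.23). Meis1 came nearest to 2-fold among the 8 cofactors at 2 CPM, at 15.6 against 29.2 CPM (0.90).

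Beyond the lists, genes that reached 20 CPM on their higher side were ranked by ratio, and 12 were taken on each side. At that level 144 of 5785 genes (2.49%) were at least 2-fold higher in Hoxb/c-negative and 135 (2.33%) in Hoxb/c-high cells. The top gene of the high side was Ly6h, a surface protein gene, at 25.5 against 1.56 CPM (log2 ratio 4.03). Sfrp2, which encodes a secreted Wnt modulator, was at 53.6 against 3.71 CPM (3.85), and Bcl11b, a zinc finger gene of skin, tooth and T cells, at 26.0 against 2.15 CPM (3.60, 2.75 to 4.60). Adam33 (3.10), Tfpi2 (3.02), Gpr149 (2.99) and Ctla2a (2.73) followed. The group also held genes of cell adhesion and axon guidance: Cdh4, a cadherin (3.07), Tenm4, a teneurin (2.72), Epha3, an ephrin receptor (2.66), Lingo2 (2.65) and Itga4, an integrin subunit (2.58). With sides from the Hoxb genes alone, 5 of the 12 were under 2-fold: Tfpi2 (0.42), Epha3 (0.79), Ctla2a (0.95), Cdh4 (0.97) and Gpr149 (0.99).

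On the negative side the matrix protein gene Mgp, an inhibitor of calcification, was at 3655 CPM in Hoxb/c-negative against 43.8 CPM in Hoxb/c-high cells (log2 ratio -6.38, -6.44 to -6.33). It was found in 68.8% of thinned Hoxb/c-negative cells and 11.6% of thinned Hoxb/c-high cells. In the same order, Stmn2, a microtubule regulator best known from neurons, was at 322 against 6.15 CPM (-5.71) and in 34.8% against 2.78% of thinned cells. Bmp4, a signal of limb and lateral mesoderm, was at 36.1 against 0.394 CPM (-6.52). Fabp4, a fatty acid binding protein gene (66.6 against 0.979 CPM, -6.09), Penk, which encodes an opioid precursor (26.4 against 0.161 CPM, -7.36), and Coch (26.8 against 0.424 CPM, -5.98) had similar patterns. Wfdc2 (-7.95) rested on few cells: 26 of 256 cells held its 166 UMIs, up to 51 in 1 cell. Gda (-5.41), Ccn5 (-5.24), Msln (-5.18) and Cda (-4.97) completed the 12.

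Genes picked for the plot because they differed between the sides changed with the Hox sum (plot of CPM by Hox sum). Not all of them are position genes, and of the 46 position genes at 2 CPM, 17 were at least 2-fold apart. Mgp went from 3655 CPM at a sum of 0 through 898 at 1 to 2, 543 at 3 to 5 and 129 at 6 to 9 to 19.6 at 20 or more. Hoxd13 fell off earlier, from 35.6 CPM at 0 to 4.44 at 1 to 2 and 0.377 at 3 to 5. En1 was at 17.8, 44.5, 71.8 and 83.0 CPM in the 4 lowest bins and at 94.6 CPM at 20 or more. Levels of En1, Irx1 and Bcl11b changed little above a sum of 9, so most of the contrast lay among the lowest sums. Deeper cells reach higher sums, with a median of 30250 UMIs at 20 or more and 16577 at 1 to 2.

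**Figure D4:**
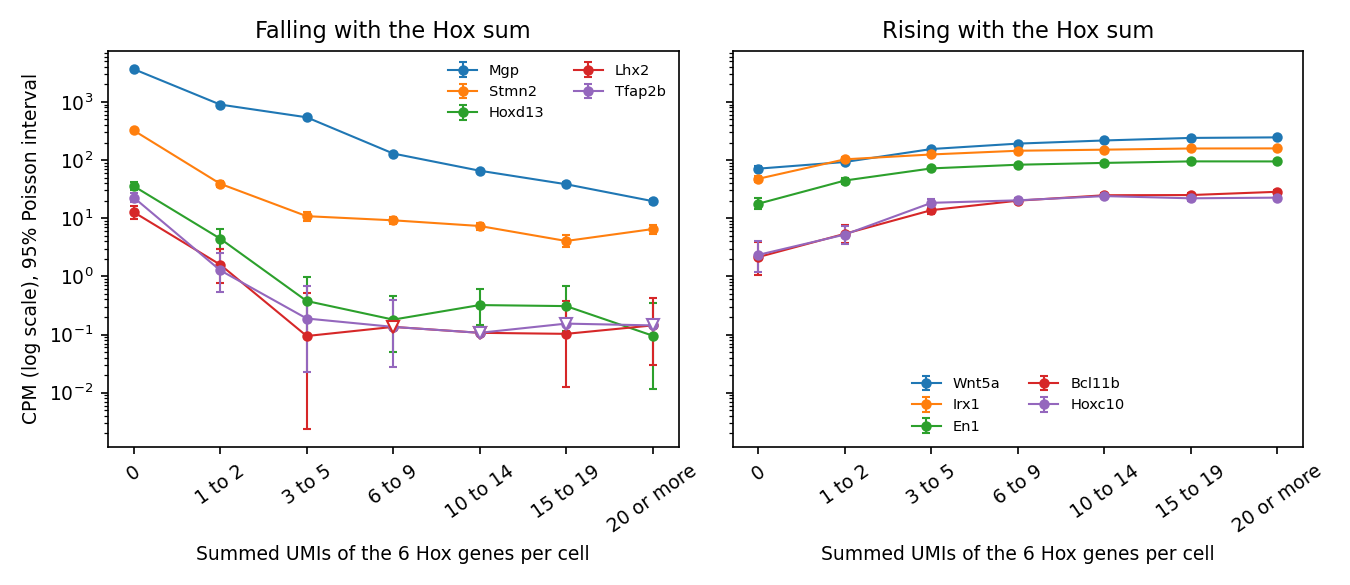
CPM on a log axis with 95% Poisson intervals for 5 genes lower and 5 genes higher in Hoxb/c-high cells, by bins of the summed UMIs of the 6 Hox genes (horizontal axis); open triangles stand for 0 UMIs, drawn at 3 counts. Hoxd13, Lhx2 and Tfap2b are at 0.377 CPM or less from a sum of 3 on, while Mgp goes down at each step, from 3655 CPM to 19.6 CPM.

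The Hoxb/c-negative cells were split in 3 by the other Hox genes they held, a division chosen after the values were seen. In 118 cells (46.1%) there was a UMI of Hoxa11, Hoxa13, Hoxd11, Hoxd12 or Hoxd13, and these are called 5′ Hox cells. In 96 cells (37.5%) there was none of these but a UMI of a paralogue 1 to 5, and these are called 3′ Hox cells. The other 42 cells (16.4%) had neither. Their median UMIs were 22000, 16116 and 15413.5. Of the Hoxb/c-high cells, 59 held a 5′ UMI.

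Of the 5′ Hox cells 31 also held a paralogue 1 to 5 UMI, but few of these were of the Hoxb cluster, which the split did not ask for. Hoxb2 was found in 2 of 118 cells (0.720 CPM), Hoxb3 in 3 cells (1.08 CPM), and Hoxb4 and Hoxb5 in none. In 3′ Hox cells, which needed a UMI of such a gene, Hoxb2 was at 54.1 CPM and Hoxb4 at 43.0 CPM, and the Hoxb/c-high cells stood at 56.1 and 40.3 CPM. In 5′ Hox cells Hoxd13 was at 65.6 CPM and Hoxd11 at 67.0 CPM, in 75 and 74 of 118 cells. Hoxa10 (44.7 CPM) and Hoxd10 (23.8 CPM), which were not in the split, were at 5.89 and 0.589 CPM in 3′ Hox cells. In the 42 cells with neither, Hoxa10 was at 26.4 CPM (15.4 to 42.3) and Hoxd10 at 4.66 CPM, so Hoxa10 was not limited to 5′ Hox cells.

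The limb genes that were higher on the negative side lay mostly in the 5′ Hox cells (plot of position genes in the 3 parts). All 65 UMIs of Lhx2 were there, in 37 of 118 cells (23.4 CPM), as were 115 of the 116 UMIs of Tfap2b (41.4 CPM, 41 cells). Lhx9 was at 39.3 CPM in 5′ Hox and 1.18 CPM in 3′ Hox cells, and Pitx1 at 15.5 CPM against 0 UMIs. Msx1 was at 11.5 CPM against 0.589 CPM, and Tbx4 at 5.76 CPM against 0 UMIs. Crabp2 was at 209 CPM in 5′ Hox cells and 27.1 CPM in 3′ Hox cells, close to the 24.5 CPM of Hoxb/c-high cells. Stmn2 (576 against 11.2 CPM), Fabp4 (118 against 0.589 CPM) and Penk (45.7 against 0.589 CPM) had the same distribution. Mgp was highest in 5′ Hox cells (5741 CPM) and still at 1084 CPM in 3′ Hox cells.

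The 3′ Hox cells had another set. Alx1, a gene of frontonasal mesenchyme, was at 7.65 CPM in 3′ Hox cells (11 of 96 cells), had 0 UMIs in 5′ Hox cells and stood at 0.146 CPM in Hoxb/c-high cells. Gata6, a zinc finger gene of heart and gut mesoderm, was at 11.8 CPM against 0.360 CPM in 5′ Hox and 2.79 CPM in Hoxb/c-high cells. Hoxa2 was at 10.0 CPM against 0.360 CPM in 5′ Hox cells, and a UMI of such a paralogue was what chose the 3′ Hox cells. En1 (34.1 CPM), Irx1 (88.9 CPM) and Meis1 (38.3 CPM) were all higher than in 5′ Hox cells, where they were at 9.0, 22.0 and 1.80 CPM. For these 3 genes the 3′ Hox cells lay nearer to the Hoxb/c-high cells.

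**Figure D5:**
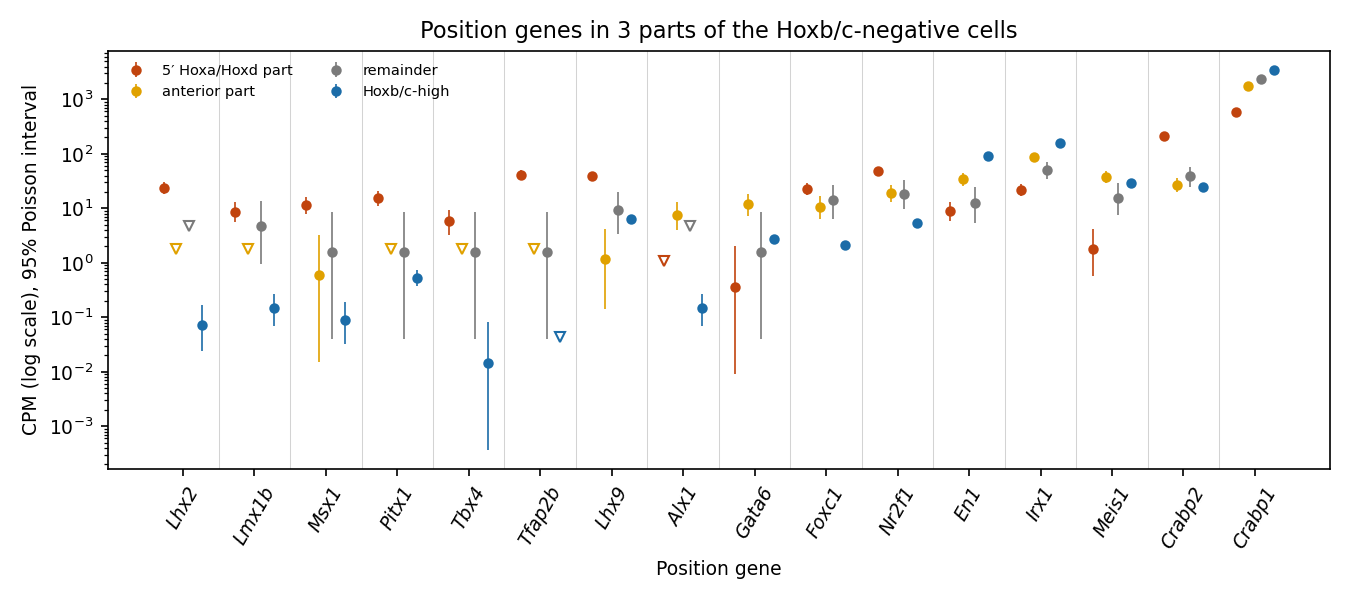
CPM on a log axis with 95% Poisson intervals for 16 position genes (horizontal axis) in groups of cells. The 5′ part is the 118 Hoxb/c-negative cells with a UMI of the 5′ Hoxa or Hoxd genes of the split. The anterior part is the 96 with none of these but a paralogue 1 to 5 UMI. The remainder is the 42 with neither, beside the 2734 Hoxb/c-high cells. Open triangles stand for 0 UMIs, drawn at 3 counts. Lhx2, Lmx1b, Msx1, Pitx1, Tbx4, Tfap2b and Lhx9 are highest in the 5′ part, and Alx1 and Gata6 in the anterior part.

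The few Hoxb/c-high cells with a 5′ UMI held less Lhx2, Tfap2b, Msx1, Pitx1 and Lhx9 than the 5′ Hox cells did. Of the 59 such cells, 42 held Hoxa11 and 10 Hoxd13, with 0 UMIs of Tfap2b and 3 of Lhx2. Their Hoxc8 level was 198 CPM, and En1 was at 92.5 CPM, as in the other Hoxb/c-high cells. Mgp was at 340 CPM against 36.5 CPM in the rest of that side, and Stmn2 at 45.7 against 5.18 CPM. Lhx2 (1.83 against 0.0299 CPM), Pitx1 (1.22 against 0.509 CPM) and Msx1 (0.609 against 0.0748 CPM) were higher too. These 3 rested on 3, 2 and 1 UMIs in the 59 cells. Lhx9 went the other way, at 2.44 against 6.46 CPM. Of these 59 cells, 13.6% were among the highest doublet scores, against 7.21% of the other Hoxb/c-high cells.

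Cell type markers were not level either. All 12 fibroblast markers passed 2 CPM, with a summed level of 6952 CPM in Hoxb/c-high and 4802 CPM in Hoxb/c-negative cells. Col1a1 was at 2291 against 1565 CPM and Col3a1 within 2-fold (0.03). Of the 12, 5 were at least 2-fold higher in Hoxb/c-high cells (background 4.05%) and 0 in Hoxb/c-negative cells: the matrix proteoglycan genes Dcn (275 against 58.6 CPM, log2 ratio 2.23) and Lum (2.14), the receptor gene Pdgfra (2.04), Twist2 (1.46) and Postn (1.41). With sides from the Hoxb genes alone, Dcn (0.76), Lum (0.78), Pdgfra (0.74) and Twist2 (0.79) were under 2-fold, and Postn was not recomputed. Of 8 smooth muscle markers at 2 CPM, Actg2 (343 against 84.6 CPM, 2.02) and Myh11 (1.56) were higher in Hoxb/c-high cells, and Acta2 (0.11) and Tagln (0.31) were within 2-fold. Actg2 was at 0.42 with sides from the Hoxb genes alone, and Myh11 at 0.20 in thinned cells with sides redrawn from the thinned counts.

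Markers of other types were low or led by single genes. Endothelial markers summed to 0.613 CPM in Hoxb/c-high and 0.781 CPM in Hoxb/c-negative cells, with Pecam1 and Cdh5 at 0 UMIs in the latter, and immune markers to 4.24 and 1.56 CPM, with Ptprc at 1 and 0 UMIs. The osteoblast list (273 against 2187 CPM) was almost all Spp1, at 255 against 2173 CPM (log2 ratio -3.09). Mesothelial markers summed to 3.13 against 30.7 CPM, with 2 of 6 at 2 CPM, both higher in Hoxb/c-negative cells (Msln and Krt19). The 10 neural and glial markers summed to 29.1 CPM in Hoxb/c-high and 45.1 CPM in Hoxb/c-negative cells. Of the 2 at 2 CPM, 1 was at least 2-fold higher in Hoxb/c-negative cells (background 2.91%) and the other was within 2-fold. By gene, Nes was higher in Hoxb/c-negative cells (16.8 against 1.72 CPM in Hoxb/c-high cells, -3.28), and Sox2 had 26 UMIs there against 2. Their part in the position genes was not tested directly. Cells with UMIs of Col1a1, Col1a2 and Col3a1 and none of Ptprc, Pecam1, Cdh5 and Epcam numbered 2650 against 232. Among them 17 position genes were 2-fold apart. Of all 10844 tested genes, 416 were at least 2-fold higher in Hoxb/c-high and 351 in Hoxb/c-negative cells there.

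The 12 cycling genes were all within 2-fold, with a median log2 ratio of -0.53 and summed levels of 404 CPM in Hoxb/c-high and 579 CPM in Hoxb/c-negative cells. In cells without Mki67 and Top2a UMIs 19 position genes were 2-fold apart. Of all 10844 tested genes, 518 were at least 2-fold higher in Hoxb/c-high and 395 in Hoxb/c-negative cells there, more than in the main setting. The 4 genes of the sex-linked list that are in the matrix were within 2-fold on both sides. Of 11 stress genes at 2 CPM, Ddit3 was higher in Hoxb/c-high cells (132 against 62.3 CPM, log2 ratio 1.08), but under 2-fold with sides from the Hoxb genes (0.67) or the Hoxc genes alone (0.73).

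The same rule in the iMPC library, which the choice of cells had not used, gave other ratios than in MEF cells for several position genes. There 250 of 9034 cells (2.77%) were Hoxb/c-high and 2103 (23.3%) Hoxb/c-negative, with median UMIs of 39169.5 and 18182. Of 50 position genes at 2 CPM, 9 were at least 2-fold apart, against 3.63% of 10912 genes. Of these 2 were higher in the Hoxb/c-high cells (background 1.77%) and 7 in the Hoxb/c-negative cells (1.86%). Tfap2a was at 3.36 CPM in the Hoxb/c-high and 13.8 CPM in the Hoxb/c-negative iMPC cells (log2 ratio -2.04), close to its MEF ratio (-2.08). En1 (0.42), Irx1 (-0.04), Wnt5a (-0.36), Crabp1 (0.12) and Lhx2 (-0.17) were within 2-fold. No posterior Hox gene reached 2 CPM over all kept iMPC cells, with a summed level of 3.19 CPM on the high side and 1.86 CPM on the negative side. Of 12 cycling genes, 7 were at least 2-fold higher in the Hoxb/c-high iMPC cells, which were also the deeper ones. Within bins of equal depth 18 position genes were at least 2-fold apart in place of 9. With up to 1 UMI allowed on the negative side 5 were. In both settings no count over all genes was made to set beside these. The part of cycling and depth was not tested beyond these counts. The series text speaks of 1 stable clone, and whether the iMPC sides differ in body region of origin was not tested. Between the 2 libraries, 14 barcodes of kept cells were shared.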

How the data were processed

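Per the file headers, Cell Ranger wrote both deposited matrices, whose values are unscaled UMI counts, and the labels' protocols name the 10x Single Cell 3′ kit. The submitters' processing notes name Cell Ranger 4.0, Seurat 3.2.3 and GRCm38.p6. How the 6113 MEF barcodes (503 UMIs or more) were selected is not given in the sources used here. Gene positions are from GENCODE M21, which held 26013 of 26124 identifiers. Of 18 noncoding RNAs listed for the Hox clusters, 17 were not analysed here. Some listed genes are not reported here.

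Cells with at least 10000 UMIs, 500 genes and at most 20% mitochondrial UMIs were kept. UMIs were summed over each side and scaled to CPM. Intervals (95%) are exact Poisson for levels, exact conditional for ratios and Clopper-Pearson for shares. They cover counting error only, since each group is 1 library, and no test was made. A side at 0 UMIs was set to 3 counts. For shares, every cell was thinned to 10000 UMIs and stayed on its side. The thinned alternative instead redrew the sides from the thinned counts, at 5 or more UMIs of the selecting genes against 0. The code was tested on simulated data. Scrublet's own threshold marked 5 of 5118 cells (0.0977%), so it did not work, and doublets were kept except in 1 alternative without the 290 highest scores. Tools were Python 3.11.15, scanpy 1.11.5, matplotlib 3.10.9, scipy 1.17.1, numpy 2.4.6 and pandas 2.3.3.

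The cells, the gene lists and the rules were chosen with earlier results of these data known. Named genes were the 12 largest ratios on each side at 20 CPM or more, list members at least 2-fold apart with 5 CPM or more on the higher side, the 3 highest members of each position list, Hox genes at 5 CPM or more, and up to 4 members of other lists at 20 CPM or more. Other genes were named after their values were seen (Tbx4, Alx1, Hoxa2, Sox2, Nes, Meis1, Postn and those given as within 2-fold or near 0). Alternatives changed the Hox limits, the cluster used, depth, weighting, scaling, the filters, doublets, cycling and cell type.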

Additional observations from a re-analysis of the deposited data

Results flagged for a closer look

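A set of 3 fibroblast genes had opposite signs in the 2 libraries. In MEF cells Dcn, Lum and Pdgfra were higher in Hoxb/c-high cells, with log2 ratios of 2.23, 2.14 and 2.04. In iMPC cells they were higher in Hoxb/c-negative cells, with log2 ratios of -1.24 for Dcn (38.6 against 90.8 CPM), -3.11 for Lum (1.64 against 14.1 CPM) and -1.70 for Pdgfra (4.74 against 15.4 CPM). With sides from the Hoxb genes alone, the MEF ratios were under 2-fold for Dcn (0.76), Lum (0.78) and Pdgfra (0.74). The iMPC sides differed in depth, with median UMIs of 39169.5 in Hoxb/c-high and 18182 in Hoxb/c-negative cells. Each library is 1 sample, and the difference between the libraries was not tested.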

How the results depend on the processing

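Of 80 named genes at least 2-fold apart, 75 kept their direction under all 16 alternatives and 44 stayed at least 2-fold apart under all of them. The 80 include the 6 selecting genes, whose direction was fixed except in the settings with 1 cluster alone. They also include Hoxa11, Hoxa13, Hoxd11, Hoxd12, Hoxd13 and Lhx2, which had 0 UMIs on the negative side without the 5′ Hox cells. There the floor of 3 counts set their ratios, so that setting could not test their direction. Tfap2b kept 1 UMI on the negative side there and had 0 on the other, so its ratio (-3.28) rested on the floor too. Genes higher in Hoxb/c-high cells (439) came to 253 with up to 1 UMI allowed on the negative side, 62 with sides from Hoxb genes alone, 220 from Hoxc genes alone, 817 with no low-value filter and 196 at 10 CPM. Genes higher in Hoxb/c-negative cells (316) came to 147 with Hoxb genes alone, 5003 with no filter and 101 at 10 CPM. The 17 position genes became 8, 68 and 9 under the same 3 settings. The 9 of the iMPC library became 5 with up to 1 UMI allowed and 18 within depth bins, with no count over all genes beside them. The setting of at least 20 UMIs was not run in iMPC, where 5 cells reached it. Without the 5′ Hox cells, an alternative chosen after seeing the data, the counts were 525, 259 and 14, and log2 ratios turned for Lhx9 (0.90), Pitx1 (0.30), Osr1 (0.0605) and Hoxa9 (1.47). Of the 80 genes, 21 were under 2-fold or turned in that setting, 29 with sides from Hoxb genes alone and 13 from Hoxc genes alone. In thinned cells with redrawn sides 11 were, and 10 with up to 1 UMI allowed. Acta1 turned in thinned cells with redrawn sides (-0.0572, from 1.32). The causes were not tested. No paired analysis was possible because each group holds 1 library. Genes under 1 CPM rest on few UMIs on the negative side, where 3 counts are 0.586 CPM.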

Other observations

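Within the Hoxb/c-negative cells, genes outside the position lists also differed between 5′ Hox and 3′ Hox cells. Higher in 5′ Hox cells, among genes at 20 CPM or more, were Igfbp3, an insulin-like growth factor binding protein gene (241 against 4.71 CPM), Ppbp, a chemokine gene (51.1 against 1.18 CPM), Lmo1, a LIM domain gene (38.5 against 1.18 CPM), and Angptl7 (52.2 CPM against 0 UMIs). Higher in 3′ Hox cells were Ptn, the growth factor pleiotrophin (2816 against 87.9 CPM), Nnat, an imprinted gene (76.5 against 1.80 CPM), Dlk1, also imprinted (29.4 against 0.720 CPM), and Ptprz1, a receptor for pleiotrophin (43.0 against 0.360 CPM, 1 UMI). These genes were taken from the largest ratios after the values were seen, and with 118 and 96 cells of 1 library no test was made.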
